A study of Mus musculus with 11 samples.

Results

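DNA damage response and repair genes were followed in bile duct epithelial cells (cholangiocytes) of mice during and after a cholestatic liver injury. The set holds 36 genes of homologous recombination, the Fanconi anaemia pathway, mismatch repair, damage checkpoint signalling, end joining and nucleotide excision repair, listed by gene symbol when earlier results of these data were already known, so that the counts below are not independent of that choice; all 36 were found among the 43346 genes of the expression table. Every group consisted of wildtype male C57BL/6 mice, 14 to 16 weeks of age. The R15 group was fed DDC, a porphyrinogenic diet that injures the bile ducts, for 10 days and then chow for 15 days (n = 3 libraries), the DDC group was fed DDC for 10 days (n = 4) and the Control group was fed chow (n = 4). Cells were taken from dissociated liver with magnetic beads against EpCAM, over 2 columns in succession, and polyA RNA was sequenced. The labels number the libraries but do not say that each came from a separate mouse, so the p-values measure the spread between these libraries.

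Homologous recombination repairs double-strand breaks and broken replication forks by copying the sister chromatid: a broken end is resected, the BRCA1-BARD1, PALB2 and BRCA2 proteins load the recombinase, and motors and helicases carry out and resolve strand exchange. The Fanconi pathway deals with crosslinks between the DNA strands, where a core complex that includes the ubiquitin ligase FANCL modifies the FANCD2-FANCI pair at a stalled fork. Many of these genes are transcribed mainly in dividing cells, in S and G2 phase, and cholangiocytes of an uninjured duct are mostly quiescent. End joining by the Ku proteins and excision repair also act outside S phase, and their main factors are present in resting cells.

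Values are FPKM, fragments scaled to gene length and library size, as deposited by the authors. Library depth was 49339240 to 72929107 reads, and a value near 1 FPKM stood for a median of 122 reads. Differences were tested with limma on log2(FPKM + 1) over all 19807 genes with a mean of at least 0.1 FPKM, with Benjamini-Hochberg adjustment over all of them and a threshold of 0.05; all 36 genes passed this minimum. The pseudocount makes a log2 difference smaller than the ratio of mean FPKM for genes below about 1 FPKM, so both are given. Cholangiocyte markers were present in every library. The summed level of 7 markers (Epcam, Krt19, Krt7, Sox9, Spp1, Cftr and Tspan8) was 8493 to 9514 FPKM in R15, 9640 to 10732 FPKM in DDC and 7823 to 10788 FPKM in Control. Most of each sum was Spp1, at 7350 to 8418 FPKM in R15, 8196 to 9153 FPKM in DDC and 6491 to 9773 FPKM in Control. Epcam had 287 to 305 FPKM in R15, 360 to 431 FPKM in DDC and 259 to 315 FPKM in Control. Cftr was far lower, with means of 16.5, 25.5 and 14.1 FPKM in R15, DDC and Control. Some libraries stood apart by transcripts of neighbouring organs. Summed over 5 pancreatic acinar enzyme genes, R15 3 had 608 FPKM, DDC 1 had 419 FPKM, and Control 1, Control 2 and Control 3 had 3838, 1013 and 433 FPKM, against at most 9.47 FPKM in the other 6 libraries. Control 3 also had 9143 FPKM summed over 5 gastric mucous genes, against at most 161 FPKM elsewhere. Control 1 had the lowest value of its group for 29 of the 36 repair genes, and R15 3 for 24 of 36.

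After 10 days of DDC, 27 of the 36 genes (75%) were higher than on chow, 1 was lower and 8 did not pass the threshold. Among all genes tested, 29.0% were higher and 27.4% were lower in the same comparison. That background of 5739 genes higher and 5428 lower became 4707 higher and 6118 lower when libraries were rescaled to the same FPKM total, where 26 of the 36 genes were higher and 2 lower. The median log2 difference of the 36 genes was 0.50, against -0.0053 for all genes tested. Values of the DDC and Control libraries did not overlap for 29 genes higher in DDC and for 2 lower in DDC, where 27.7% and 26.5% of all genes tested were apart in those directions. In 15 of the 36 the mean FPKM was at least 2-fold higher, a size reached with the same threshold by 10.8% of all genes tested. These were Exo1, Brip1, Rad51ap1, Fanci, Brca1, Rad54l, Chek1, Rad51b, Bard1, Blm, Rad54b, Fanca, Brca2, Polq and Palb2, in falling order of the ratio. Without the 5 libraries with pancreatic transcripts, 23 genes were higher and 1 was lower, and all 15 were among the 23; this left Control 4 alone on chow, assumed to vary like the other groups. In bulk RNA, more cells that express a gene cannot be told apart from more RNA of that gene per cell, which holds for every difference below.

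**Figure D1:**
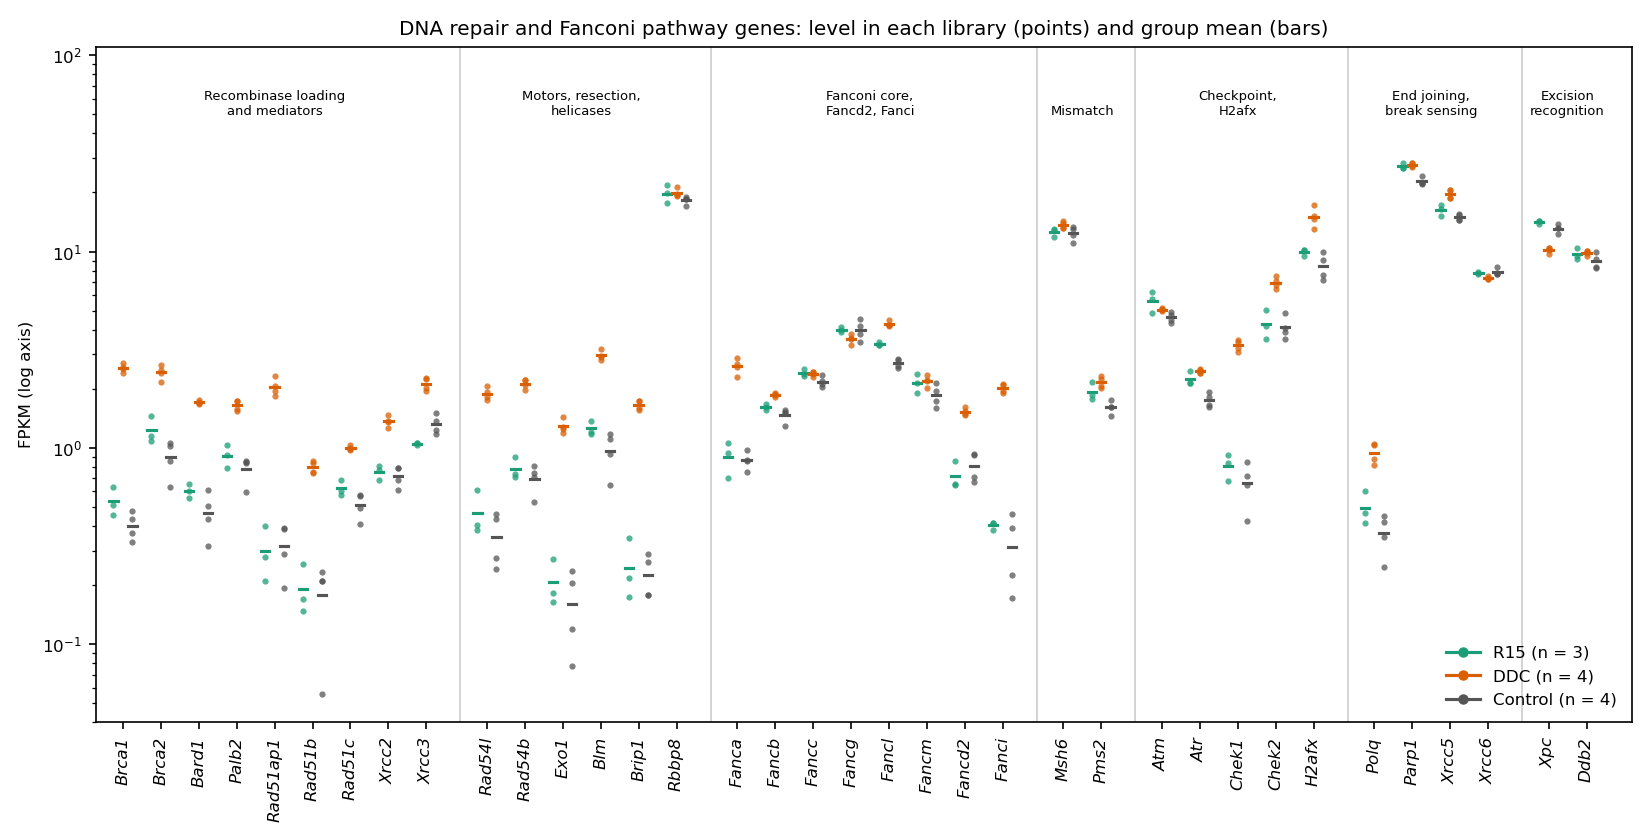
Level of each of the 36 genes in FPKM (log axis) in every library, grouped by role; points are libraries and bars are group means, for R15 (n = 3), DDC (n = 4) and Control (n = 4). Points of DDC lie above those of R15 and Control for all 9 genes of recombinase loading, while Rbbp8, Msh6, Parp1 and Xrcc5 lie above 10 FPKM in every library.

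The genes that load the recombinase onto resected DNA were all higher in DDC, 9 of 9, with a median log2 difference of 0.61. Brca1, the ubiquitin ligase and scaffold that starts recombination (ENSMUSG00000017146, chr11:101488764-101551955, mm10), had 0.510, 0.635 and 0.457 FPKM in R15, 2.40, 2.51, 2.57 and 2.70 FPKM in DDC and 0.331, 0.432, 0.477 and 0.368 FPKM in Control. Every DDC library was above every other library, and the mean was 6.33-fold that of Control (log2 difference 1.34 ± 0.058 SE, limma adjusted p = 1.7e-07). Bard1, its obligate partner, had 0.655, 0.600 and 0.555 FPKM in R15, 1.72, 1.68, 1.70 and 1.75 FPKM in DDC and 0.316, 0.609, 0.505 and 0.434 FPKM in Control. The DDC values of Bard1 had an SD of 0.0275 FPKM (n = 4) and were apart from both other groups, and the ratio of means to Control was 3.67 (adjusted p = 1.9e-06, limma). Palb2, the bridge between BRCA1 and BRCA2, reached 1.74, 1.54, 1.57 and 1.73 FPKM in DDC and 0.595, 0.859, 0.836 and 0.848 FPKM in Control, and was 2.10-fold higher (adjusted p = 5.9e-05, limma). Brca2 (ENSMUSG00000041147, chr5:150522630-150569746), which delivers the recombinase, had 1.46, 1.09 and 1.15 FPKM in R15, 2.49, 2.18, 2.40 and 2.65 FPKM in DDC and 0.631, 1.06, 0.861 and 1.03 FPKM in Control. DDC was above both other groups in each library, with a ratio of 2.71 to Control and a log2 difference of 0.86 ± 0.089 (adjusted p = 2.3e-05, limma).

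Among the cofactors of the recombinase, Rad51ap1, which stimulates strand pairing, showed the widest ratio. It had 0.280, 0.402 and 0.211 FPKM in R15, 1.95, 1.84, 2.08 and 2.33 FPKM in DDC and 0.193, 0.393, 0.386 and 0.289 FPKM in Control, and the DDC mean was 6.51-fold that of Control (log2 difference 1.21 ± 0.075, adjusted p = 9.4e-07, limma). The R15 and Control values of Rad51ap1 overlapped, and both lay far below the lowest DDC library. Rad51b, a recombinase paralog, had the lowest mean of the set in R15 and in DDC; its values were 0.170, 0.255 and 0.148 FPKM in R15, 0.756, 0.858, 0.741 and 0.839 FPKM in DDC and 0.0559, 0.234, 0.211 and 0.209 FPKM in Control. Its ratio of 4.50 rests in part on Control 1, where only 7 reads were counted (log2 difference 0.61 ± 0.059, adjusted p = 1.4e-05, limma). The other paralogs were higher by less than 2-fold: Rad51c 1.95-fold, Xrcc2 1.90-fold and Xrcc3 1.61-fold (adjusted p = 6.9e-05, 5.5e-05 and 0.00023, limma). The gene model of Xrcc3 overlaps that of Klc1 on the other strand, a gene with a mean of 20.3 FPKM.

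Of the genes for strand exchange motors, end resection and helicases, 5 of 6 were higher in DDC, each by at least 2-fold, and Rbbp8 did not pass. Exo1, a nuclease that resects DNA ends and also serves mismatch repair (ENSMUSG00000039748, chr1:175880581-175913489), had 0.183, 0.273 and 0.164 FPKM in R15, 1.25, 1.19, 1.43 and 1.28 FPKM in DDC and 0.0776, 0.206, 0.235 and 0.120 FPKM in Control. Its ratio of 8.08 was the largest of the 36 (log2 difference 0.98 ± 0.059, adjusted p = 8.1e-07, limma), from the lowest mean of the set on chow. Brip1, a helicase that binds BRCA1 and is also the Fanconi protein FANCJ, had 0.217, 0.347 and 0.174 FPKM in R15, 1.57, 1.59, 1.73 and 1.73 FPKM in DDC and 0.177, 0.263, 0.287 and 0.178 FPKM in Control. No library of R15 or Control came within 1 FPKM of the DDC libraries, and the ratio to Control was 7.32 (log2 difference 1.12 ± 0.058, adjusted p = 3.6e-07, limma). Rad54l, a motor that remodels the recombinase filament, had 1.75, 1.92, 1.81 and 2.08 FPKM in DDC and 0.242, 0.434, 0.463 and 0.274 FPKM in Control, a ratio of 5.35 (adjusted p = 1.8e-06, limma). Its relative Rad54b had 1.98, 2.10, 2.21 and 2.22 FPKM in DDC and 0.528, 0.809, 0.710 and 0.744 FPKM in Control, a ratio of 3.05 (adjusted p = 2.7e-06, limma). The 2 motors overlap other gene models, Rad54l with Lrrc41 on the other strand and Rad54b with Fsbp on the same strand, so part of their reads cannot be assigned with certainty. Blm, the helicase that dissolves joint molecules, had 1.37, 1.18 and 1.21 FPKM in R15, 2.94, 2.81, 2.90 and 3.18 FPKM in DDC and 0.649, 1.18, 1.10 and 0.933 FPKM in Control. Its groups did not overlap between DDC and Control, and its ratio was 3.06 (adjusted p = 6.5e-06, limma). Rbbp8, which encodes the resection factor CtIP, was the second most abundant gene of the set on chow, with 19.8, 21.8 and 17.6 FPKM in R15, 19.6, 21.4, 19.5 and 19.2 FPKM in DDC and 18.5, 18.6, 17.0 and 19.1 FPKM in Control. All DDC values of Rbbp8 lay above all Control values, by 0.12 on the log2 scale (95% interval -0.03 to 0.26, adjusted p = 0.15, limma).

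Within the Fanconi pathway, 5 of 8 genes were higher in DDC and 3 did not pass. Fanci, a part of the clamp that the pathway ubiquitinates (ENSMUSG00000039187, chr7:79391929-79450265), had 0.413, 0.415 and 0.384 FPKM in R15, 1.96, 2.13, 1.91 and 2.09 FPKM in DDC and 0.172, 0.460, 0.393 and 0.225 FPKM in Control. Its DDC mean was 6.46-fold that of Control (log2 difference 1.21 ± 0.072, adjusted p = 7.8e-07, limma). Its partner Fancd2 was 1.89-fold higher, with 1.49, 1.54, 1.47 and 1.62 FPKM in DDC and 0.670, 0.936, 0.712 and 0.919 FPKM in Control (adjusted p = 0.00016, limma). Fanci thus had the higher mean of the partners in DDC, 2.02 ± 0.103 against 1.53 ± 0.0636 FPKM for Fancd2 (SD, n = 4), and the lower mean in Control, 0.313 ± 0.136 against 0.809 ± 0.138 FPKM (SD, n = 4). Fanca, the scaffold of the core complex, had 0.943, 1.05 and 0.700 FPKM in R15, 2.30, 2.57, 2.68 and 2.88 FPKM in DDC and 0.860, 0.977, 0.868 and 0.750 FPKM in Control, and was 3.02-fold higher in DDC than in Control (adjusted p = 4.3e-06, limma). Fancl, the catalytic ligase, had 3.34, 3.45 and 3.34 FPKM in R15, 4.23, 4.47, 4.20 and 4.23 FPKM in DDC and 2.61, 2.81, 2.85 and 2.55 FPKM in Control. Its 3 groups were apart from each other, R15 between the other two, with DDC 1.58-fold above Control (adjusted p = 1.2e-05, limma). Fancb, another core subunit, was higher by 1.27-fold (adjusted p = 0.006, limma), a call lost when libraries were rescaled to the same FPKM total (adjusted p = 0.057) and without the 5 libraries with pancreatic transcripts (adjusted p = 0.23).

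The remaining core subunits did not pass between DDC and Control. Fancc differed by 0.09 on the log2 scale (95% interval -0.02 to 0.21), and the translocase gene Fancm by 0.17 (-0.00 to 0.34). With limma voom on recovered reads both were called higher (adjusted p = 0.046 for Fancc and 0.034 for Fancm). Fancg, the most abundant of the 8 over all libraries, had 4.10, 3.97 and 3.90 FPKM in R15, 3.35, 3.59, 3.65 and 3.80 FPKM in DDC and 3.46, 4.53, 3.81 and 4.19 FPKM in Control. The groups of Fancg overlapped, and its difference was -0.12 (-0.27 to 0.04, adjusted p = 0.18, limma); without Control 1 it was lower in DDC (-0.17, adjusted p = 0.045). Ratios of DDC to Control among the core complex genes thus ran from 3.02 for Fanca to 0.900 for Fancg. Fanca, Fancc, Fancl and Fanci overlap gene models on the other strand, of which Gm20388 over Fanca had a mean of 54.8 FPKM.

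The checkpoint genes were higher in 4 of 5 cases. Chek1, the kinase that acts below ATR at stalled forks (ENSMUSG00000032113, chr9:36708482-36727065), had 0.918, 0.841 and 0.681 FPKM in R15, 3.09, 3.23, 3.45 and 3.54 FPKM in DDC and 0.426, 0.848, 0.648 and 0.719 FPKM in Control. Its log2 difference of 1.39 ± 0.084 was the largest of the 36, with a 5.04-fold mean (adjusted p = 8.4e-07, limma). Chek2, the kinase below ATM, had 7.11, 7.47, 6.41 and 6.79 FPKM in DDC and 3.60, 3.91, 4.84 and 4.09 FPKM in Control, a ratio of 1.69 (adjusted p = 0.00027, limma). H2afx, whose histone is phosphorylated around breaks, was the most abundant of these 5, with 9.45, 10.1 and 10.2 FPKM in R15, 14.7, 17.2, 15.2 and 13.0 FPKM in DDC and 7.16, 9.08, 9.91 and 7.59 FPKM in Control. No DDC value of H2afx overlapped another group, and its ratio to Control was 1.78 (adjusted p = 0.00012, limma). Of the 2 upstream kinases, Atr was 1.41-fold higher (adjusted p = 0.00065, limma), a call lost without the 5 libraries with pancreatic transcripts (adjusted p = 0.14). Atm differed by 0.11 on the log2 scale and did not pass (95% interval -0.04 to 0.25, adjusted p = 0.2, limma).

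In end joining and break sensing, 3 of 4 genes were higher in DDC. Polq, the polymerase of microhomology-mediated joining, had 0.602, 0.466 and 0.414 FPKM in R15, 0.822, 1.05, 0.883 and 1.03 FPKM in DDC and 0.246, 0.451, 0.419 and 0.352 FPKM in Control. It was the only gene of this role with a difference of at least 2-fold, at 2.58 (adjusted p = 0.00011, limma). Parp1, the sensor of strand breaks and the most abundant gene of the set (ENSMUSG00000026496, chr1:180568924-180601254), had 26.7, 28.4 and 26.5 FPKM in R15, 27.2, 28.3, 28.4 and 26.9 FPKM in DDC and 22.3, 24.4, 22.4 and 22.2 FPKM in Control. Each R15 and DDC library exceeded each Control library, and DDC was 1.21-fold above Control (log2 difference 0.27 ± 0.039, adjusted p = 0.0002, limma). The Ku subunits, which clamp broken ends as a heterodimer, parted. Xrcc5 (Ku80) had 20.5, 18.7, 20.5 and 18.7 FPKM in DDC and 14.4, 15.3, 14.5 and 15.5 FPKM in Control, a ratio of 1.31 (adjusted p = 0.00013, limma; 0.066 without the 5 libraries with pancreatic transcripts). Xrcc6 (Ku70) had 7.27, 7.50, 7.33 and 7.22 FPKM in DDC and 7.73, 7.71, 8.35 and 7.81 FPKM in Control; these did not overlap, and the difference of -0.09 missed the threshold (adjusted p = 0.052, limma) but passed it in 6 of the 21 alternatives tried, with adjusted p down to 0.0081.

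Mismatch and excision repair genes showed small differences. Msh6, a subunit of the mismatch sensor, had 13.1, 12.9 and 11.9 FPKM in R15, 14.3, 13.2, 14.0 and 13.2 FPKM in DDC and 11.1, 12.9, 12.1 and 13.3 FPKM in Control. The groups overlapped, with a difference of 0.14 (95% interval 0.00 to 0.27, adjusted p = 0.073, limma). With limma voom on recovered reads Msh6 was called higher (adjusted p = 0.049). Pms2, a subunit of the mismatch endonuclease, had 2.15, 1.85 and 1.78 FPKM in R15, 2.02, 2.07, 2.24 and 2.33 FPKM in DDC and 1.46, 1.75, 1.61 and 1.62 FPKM in Control, and was 1.35-fold higher in DDC than in Control (adjusted p = 0.0036, limma; 0.1 without the 5 libraries with pancreatic transcripts). Pms2 shares a strand and overlapping models with Rsph10b. On the other strand, Msh6 overlaps Fbxo11 (mean 25.3 FPKM) and Ddb2 overlaps Acp2 (mean 16.8 FPKM). Xpc, which finds helix distortions for nucleotide excision repair (ENSMUSG00000030094, chr6:91489305-91515884), was the only gene of the 36 lower in DDC. It had 14.3, 13.8 and 14.3 FPKM in R15, 10.5, 10.5, 9.72 and 10.2 FPKM in DDC and 12.3, 13.1, 13.1 and 13.8 FPKM in Control. All DDC libraries were below all others, with a ratio of 0.780 to Control (log2 difference -0.33 ± 0.040, adjusted p = 6.3e-05, limma). Ddb2, which recognises ultraviolet lesions upstream of XPC, had 10.4, 9.45 and 9.15 FPKM in R15, 9.44, 9.80, 10.1 and 10.1 FPKM in DDC and 8.35, 9.13, 8.20 and 9.96 FPKM in Control, with overlapping groups and an adjusted p of 0.092 (limma) for DDC against Control.

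**Figure D2:**
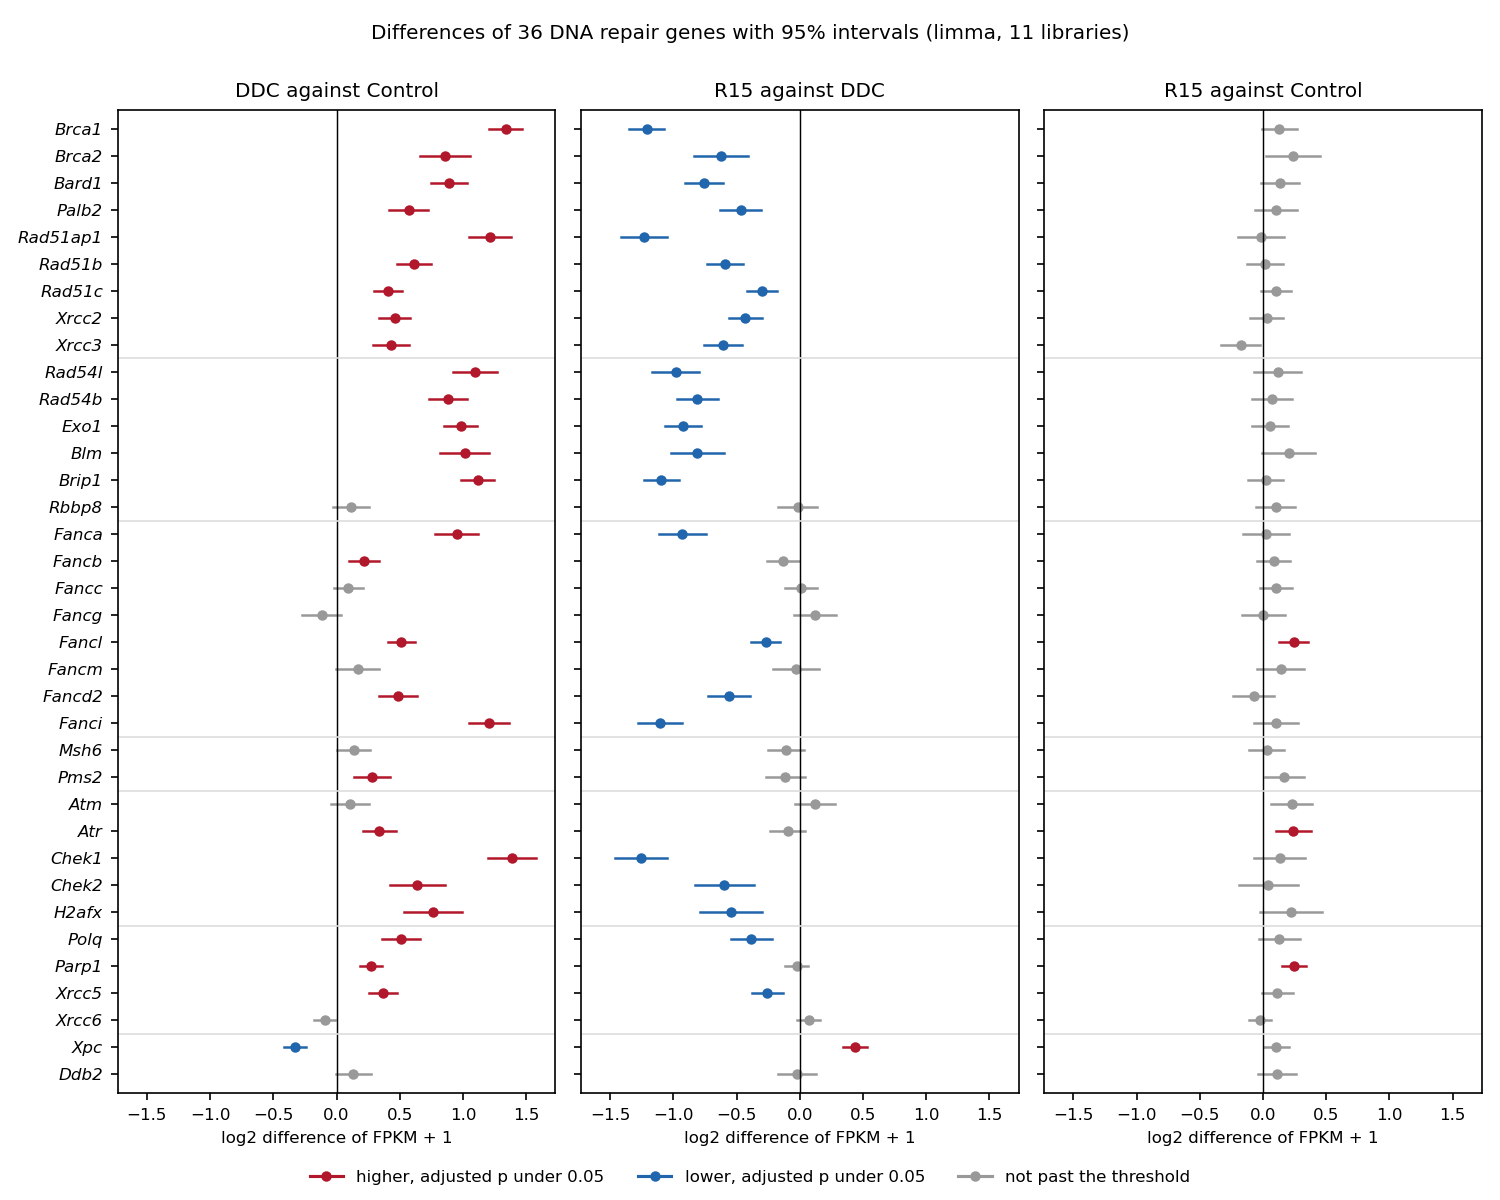
Difference in log2(FPKM + 1) for each of the 36 genes in 3 comparisons, with 95% intervals from limma over 11 libraries; red marks higher and blue lower at an adjusted p under 0.05, grey the rest. In DDC against Control 27 genes are red and Xpc is blue, in R15 against DDC 23 are blue and Xpc is red, and in R15 against Control 3 are red.

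The size of the difference followed the level on chow. Of the 18 genes with a Control mean under 1 FPKM, 15 were at least 2-fold higher in DDC, and the other 3 were 1.89-fold to 1.95-fold higher. None of the 18 genes with a Control mean of 1 FPKM or more reached 2-fold, and the 8 genes with at least 5 FPKM had ratios of 0.780 to 1.78. Across the 36 genes the Spearman correlation between the Control mean and the ratio was -0.886, as a description only, since the Control values enter both axes and the genes share their libraries. In DDC the members spanned 0.799 to 27.7 FPKM, in R15 0.191 to 27.2 FPKM and in Control 0.160 to 22.8 FPKM. The number with a mean under 1 FPKM was 16 in R15, 3 in DDC and 18 in Control. The libraries of a group also differed less from each other in DDC, with a median coefficient of variation of 9.80% in R15, 5.23% in DDC and 12.7% in Control over the 36 genes. Most of this gap lay in the 15 genes at least 2-fold higher, at 17.1% in R15, 6.44% in DDC and 25.2% in Control. In the other 21 genes it was 6.38%, 4.13% and 8.22%, in that order. The 15 genes were picked by their ratio, and all had Control means under 1 FPKM, where fewer reads are counted. Control 1 had the lowest Control value for 29 of the 36 genes. The part of low counts and of Control 1 in the spread was not tested.

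**Figure D3:**
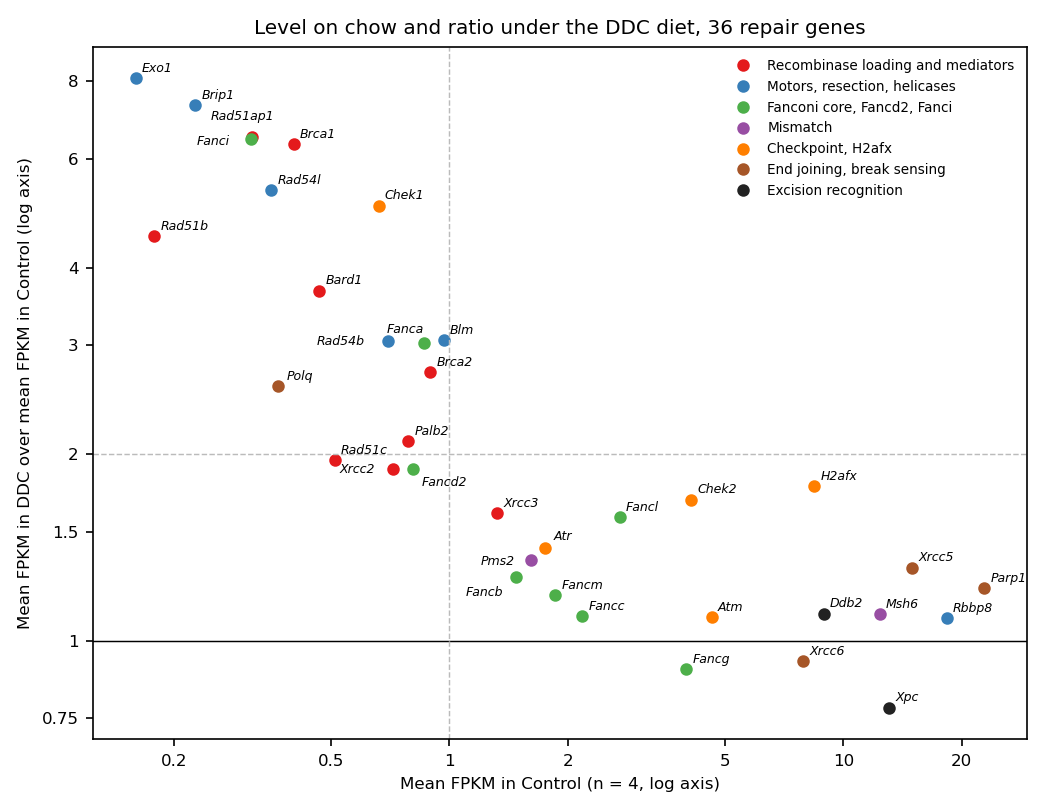
Ratio of mean FPKM in DDC over Control against mean FPKM in Control for the 36 genes (both axes log, n = 4 libraries per group), coloured by role; dashed lines mark 1 FPKM and a ratio of 2. The 15 genes above the ratio of 2 all lie left of 1 FPKM, and the genes above 5 FPKM lie between 0.780 and 1.78.

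Because members of several roles moved together and the series title names NF-Y, the factor that binds CCAAT boxes, the RefSeq promoter windows (GRCm38.p6, the mm10 assembly) of the set were searched. A window was found for 28 of the 36 genes, 31 windows in all, and the 250 bases before each start were searched on both strands. CCAAT occurred in 18 of 31 windows (58.1%), against 33.8% of all 32851 windows of the table. By gene, 7 of 13 with at least 2-fold higher DDC means held it, and 9 of 15 of the other genes. E2F sites (TTTCCCGC, TTTGGCGC, TTTCGCGC or TTTGCCGC) occurred in 5 windows (16.1%, against 1.86% of all windows), those of Brca2, Bard1, Fancg, Chek2 and Xrcc6. In all, 14 of the 31 windows held bases of the gene's own annotated exons, among them 174 of 250 bases in Bard1, 205 in Fancg and all 250 in Xrcc6, so part of these windows is transcribed sequence in the annotation. The cell cycle homology element TTTGAA occurred in 2 windows (6.45%, against 16.0%). Sites of different motifs did not overlap each other, and Chek2 was the only gene of the set with both CCAAT and an E2F site in a window (3.23% of the windows of the set, against 0.737% of all). A match describes the letters in the window and was not set against binding data. The promoters below show genes with large differences that hold CCAAT (Brca1, Rad51ap1, Brip1, Fanca), a gene with an E2F site (Brca2), and 2 genes under 2-fold for contrast, Msh6 with CCAAT and Parp1 with neither. They read 5′ to 3′ on the gene's strand and end at the base before the start; capitals mark CCAAT, its reverse complement ATTGG, or the E2F site, which in Brca2 lies on the opposite strand.
Brca1 (chr11:101551956-101552148, minus strand): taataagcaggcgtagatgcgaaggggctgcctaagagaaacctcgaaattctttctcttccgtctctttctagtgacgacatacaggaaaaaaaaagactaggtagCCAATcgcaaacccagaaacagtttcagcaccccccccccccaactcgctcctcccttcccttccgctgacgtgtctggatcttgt
Rad51ap1 (chr6:126939588-126939837, minus strand): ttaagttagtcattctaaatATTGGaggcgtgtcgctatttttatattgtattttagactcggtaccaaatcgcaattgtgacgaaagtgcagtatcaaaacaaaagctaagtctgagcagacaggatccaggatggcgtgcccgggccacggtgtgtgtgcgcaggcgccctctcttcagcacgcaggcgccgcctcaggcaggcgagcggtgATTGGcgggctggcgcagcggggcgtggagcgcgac
Brip1 (chr11:86201194-86201369, minus strand): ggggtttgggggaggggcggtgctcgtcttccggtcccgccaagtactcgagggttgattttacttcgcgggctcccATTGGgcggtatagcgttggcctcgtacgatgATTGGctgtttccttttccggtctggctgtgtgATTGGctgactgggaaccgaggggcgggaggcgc
Fanca (chr8:123318577-123318826, minus strand): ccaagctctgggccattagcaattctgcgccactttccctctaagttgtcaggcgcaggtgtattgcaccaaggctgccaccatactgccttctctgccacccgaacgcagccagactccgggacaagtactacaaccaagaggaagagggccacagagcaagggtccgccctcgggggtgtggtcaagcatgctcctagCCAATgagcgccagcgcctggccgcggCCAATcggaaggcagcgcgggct
Brca2 (chr5:150522371-150522620, plus strand): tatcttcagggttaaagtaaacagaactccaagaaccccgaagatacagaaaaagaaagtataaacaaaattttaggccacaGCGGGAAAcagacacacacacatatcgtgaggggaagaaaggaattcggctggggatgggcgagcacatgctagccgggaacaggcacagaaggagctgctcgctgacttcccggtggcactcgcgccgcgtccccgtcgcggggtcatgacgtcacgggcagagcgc
Msh6 (chr17:87974800-87975049, plus strand): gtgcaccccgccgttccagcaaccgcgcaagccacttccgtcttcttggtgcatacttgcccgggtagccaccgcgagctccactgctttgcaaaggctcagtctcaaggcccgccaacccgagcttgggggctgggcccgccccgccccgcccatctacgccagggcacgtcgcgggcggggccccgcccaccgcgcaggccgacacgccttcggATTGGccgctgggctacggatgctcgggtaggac
Parp1 (chr1:180568641-180568890, plus strand): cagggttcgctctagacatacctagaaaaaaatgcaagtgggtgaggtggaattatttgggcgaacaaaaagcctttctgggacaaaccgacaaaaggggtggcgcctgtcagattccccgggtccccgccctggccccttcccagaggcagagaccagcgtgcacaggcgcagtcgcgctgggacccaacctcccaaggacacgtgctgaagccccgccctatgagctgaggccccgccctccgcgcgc
The Brca1 and Brip1 sequences are shorter than 250 bases because bases inside annotated exons were left out. The CCAAT boxes began 86 bases before the start in Brca1, 99, 67 and 34 bases in Brip1, 50 and 23 bases in Fanca, 230 and 36 bases in Rad51ap1 and 34 bases in Msh6. These genes were picked by the size of their differences and by the motifs they hold, so nothing about CCAAT is read from their ratios.

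Recovery on chow for 15 days was compared with the end of the diet. In R15, 23 of the 36 genes (63.9%) were lower than in DDC, 1 was higher and 12 did not pass, where 24.4% of all genes tested were lower and 29.0% higher. Values of the R15 and DDC libraries did not overlap for 25 genes lower in R15 and 3 higher in R15, where 26.8% and 32.3% of all genes tested were apart in those directions. The split over all genes moved from 5751 higher and 4826 lower to 6921 higher and 3670 lower when libraries were rescaled to the same FPKM total, where the median of all genes was 0.10 on the log2 scale. It was 5111 higher and 5362 lower with median-of-ratios scaling and 5141 higher and 5310 lower with limma voom. Of the 36 genes, 22, 25 and 27 were lower in these 3 alternatives, in that order. The median log2 difference of the 36 genes was -0.45, against 0.033 for all genes tested. All 9 genes of recombinase loading and 5 of the 6 motor, resection and helicase genes were lower, while 4 of 8 Fanconi genes, 3 of 5 checkpoint genes and 2 of 4 end joining genes were. Among the last, the call of Xrcc5 was lost on a common FPKM total (-0.14, adjusted p = 0.14, limma) and without the 5 libraries with pancreatic transcripts (adjusted p = 0.052). The mismatch genes Msh6 and Pms2 did not pass, at -0.11 and -0.11. Of the 36 genes, 14 were lower by at least 2-fold in mean FPKM, as were 8.15% of all genes tested. Rad51ap1 was 6.89-fold lower in R15 (log2 difference -1.23 ± 0.081, adjusted p = 3.1e-06, limma), Brip1 6.73-fold lower and Exo1 6.24-fold lower. Brca1 fell by 1.21 on the log2 scale and Chek1 by 1.26 (adjusted p = 1.2e-06 and 5e-06, limma). Xrcc3 and Fancd2 joined the genes with at least 2-fold lower means, at 1.05 ± 0.0168 FPKM in R15 against 2.12 ± 0.166 FPKM in DDC, and 0.719 ± 0.121 FPKM in R15 against 1.53 ± 0.0636 FPKM in DDC (SD, n = 3 and 4). Xpc was higher in R15 than in DDC by 1.39-fold (log2 difference 0.43 ± 0.043, adjusted p = 2.9e-05, limma). This comparison and the one of DDC with Control share the DDC libraries, so their opposite signs are not separate evidence.

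Of the 12 genes that did not pass between R15 and DDC, Parp1, Atr, Fancb and Pms2 had been called higher in DDC against Control. With limma voom on recovered reads, Atr, Fancb, Pms2 and Msh6 were called lower in R15 (adjusted p = 0.028, 0.027, 0.045 and 0.041). Fancb and Msh6 also passed as lower with median-of-ratios scaling (adjusted p = 0.029 and 0.039, limma). Parp1 averaged 27.2 ± 1.03 FPKM in R15 and 27.7 ± 0.733 FPKM in DDC (SD, n = 3 and 4), a log2 difference of -0.03 (95% interval -0.12 to 0.07, adjusted p = 0.64, limma). Atr averaged 2.25 ± 0.180 FPKM in R15 and 2.47 ± 0.0607 FPKM in DDC, a difference of -0.10 (-0.24 to 0.04). Fancm, Rbbp8 and Fancc differed by -0.03, -0.02 and 0.01 on the same scale.

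Recovered mice were then compared with mice that had stayed on chow. In R15, 3 of the 36 genes were higher than in Control, 0 were lower and 33 did not pass, with limma; 5.47% of all genes tested were higher and 1.99% lower. At an unadjusted p under 0.05 there were 8, of which only Xrcc3 was lower. The share of all genes at that unadjusted threshold was not counted, so the 8 are not read as a trait of the set. With limma voom on recovered reads, 3 were also called higher and 0 lower. Over all genes the split was 1084 higher and 395 lower, but 719 and 701 with median-of-ratios scaling and 847 and 631 with limma voom. Parp1 was higher by 0.24 ± 0.042 on the log2 scale (adjusted p = 0.0096), Fancl by 0.24 ± 0.052 (adjusted p = 0.024) and Atr by 0.24 ± 0.063 (adjusted p = 0.048), all with limma. In mean FPKM these were 1.19-fold, 1.25-fold and 1.29-fold, and for each of the 3 every R15 library was above every Control library. All 3 calls were lost without Control 1 and Control 3 (adjusted p = 0.07 for Parp1, 0.073 for Fancl and 0.22 for Atr), and over the 21 alternatives tried that of Atr was lost in 16, that of Fancl in 9 and that of Parp1 in 3. Fancl lost its call without any 1 of the R15 libraries (adjusted p = 0.056 to 0.068). R15 and Control values did not overlap for 8 genes higher in R15 and 1 lower in R15, where 13.8% and 5.44% of all genes tested were apart. The log2 difference was above 0 in 32 of the 36 genes, with a median of 0.10 against 0.038 for all genes tested. The median of all genes became -0.0028 with median-of-ratios scaling, and the share of all genes above 0 was not counted. The 95% intervals of the 33 genes that did not pass reached from -0.33 for Xrcc3 to 0.47 for H2afx. For Exo1, Brip1 and Rad51ap1, the genes with the widest DDC ratios, R15 and Control differed by 0.06, 0.02 and -0.02 on the log2(FPKM + 1) scale, and their values overlapped. As ratios of mean FPKM, R15 over Control, these were 1.30, 1.09 and 0.944. The log2 difference of Exo1 ranged from 0.019 to 0.42 over the alternatives, with adjusted p of 0.45 to 0.9.

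Repair genes outside the set gave a weaker and more mixed picture in DDC against Control. Of 105 further repair genes, 51 were higher, 18 were lower and 36 did not pass, with a median log2 difference of 0.14. Among all genes tested 29.0% were higher and 27.4% lower, the background for the count of each list below. Some of the lists lie near these shares. Among 26 other homologous recombination genes 15 were higher and 2 lower, led by Eme1, a subunit of a structure-specific nuclease (1.32 ± 0.062, adjusted p = 2.5e-07, limma), and by the nuclease-helicase gene Dna2 (1.83 ± 0.13, adjusted p = 1.7e-06, limma). Dna2 had 0.918, 1.82 and 1.01 FPKM in R15, 4.39, 4.86, 5.72 and 5.50 FPKM in DDC and 0.718, 0.772, 0.826 and 0.542 FPKM in Control. Of 15 other checkpoint genes 8 were higher and the rest did not pass, with the Chek1 adaptor Clspn at 1.60 and the fork protection gene Tipin at 1.18. Of 12 other Fanconi genes 4 were higher and 1 lower, among them Usp1, which removes ubiquitin from FANCD2 (0.63), and Ube2t, the conjugating enzyme of the pathway (0.71). Of 14 base excision genes 8 were higher and 4 lower, with the glycosylase gene Neil3 at 1.29. Of 6 translesion genes 4 were higher and 2 lower, with the ligase gene Rad18 at 1.25 and the polymerase gene Poli at -0.48. Of 13 other end joining genes 5 were higher and 3 lower; Mad2l2 differed by 0.67 and Trp53bp1, which restrains resection, by -0.41. Of 16 other nucleotide excision genes 7 were higher and 4 lower, with Rad23b, which stabilises XPC, at 0.34. Of 3 other mismatch genes 2 were lower, with Mlh3 at -0.50 (adjusted p = 6.6e-05, limma), and Msh3 did not pass (0.14). In R15 against DDC, 25 of the 105 were higher and 40 lower, where 29.0% of all genes tested were higher and 24.4% lower. In R15 against Control 5 were higher and the other 100 did not pass, where 5.47% of all genes tested were higher and 1.99% lower.

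**Figure D4:**
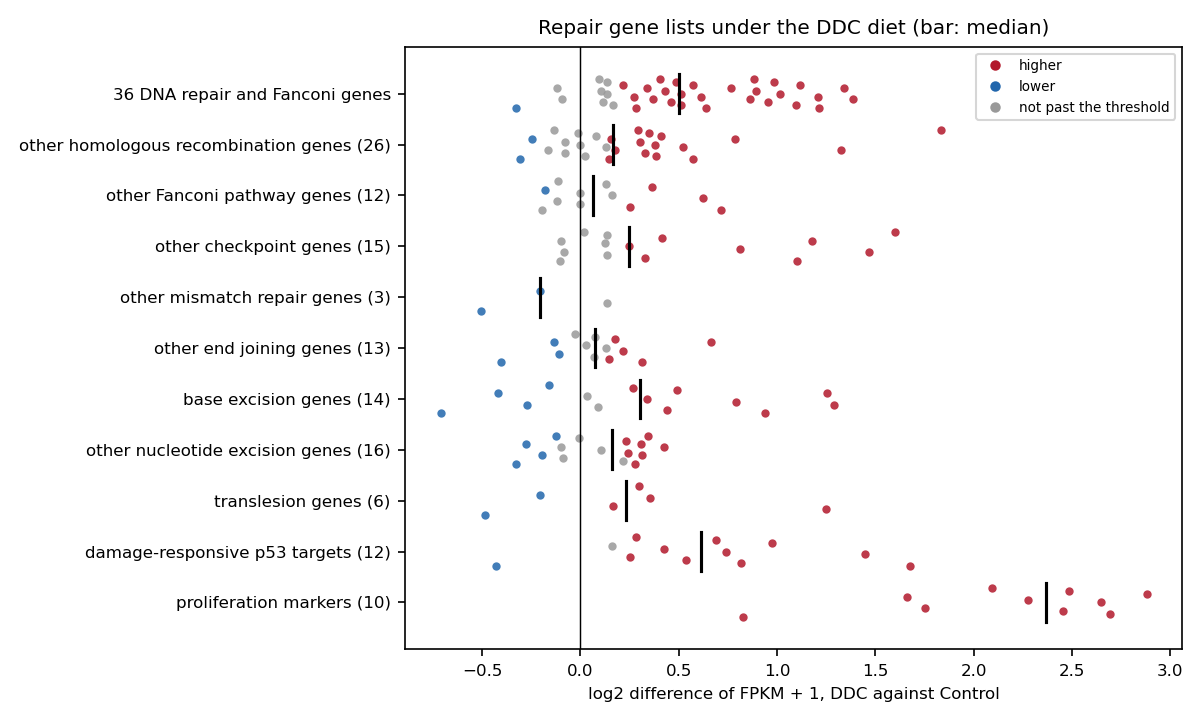
Difference in log2(FPKM + 1) between DDC and Control for the 36 genes, 8 lists of other repair genes, p53 targets and proliferation markers; each point is a gene, offset vertically only for legibility, coloured by its limma call, and black bars are medians. The median of the 36 genes is 0.50, that of the other repair lists lies between -0.21 and 0.30, and that of the 10 proliferation markers is 2.37.

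Markers of dividing cells and of other cell types moved in the same libraries. All 10 proliferation markers were higher in DDC than in Control, and their summed level was 21.6 to 31.5 FPKM in R15, 151 to 159 FPKM in DDC and 18.5 to 35.4 FPKM in Control. Cdk1, the mitotic kinase, had 1.03, 1.51 and 1.03 FPKM in R15, 11.9, 12.8, 12.8 and 12.6 FPKM in DDC and 0.689, 1.31, 1.92 and 0.691 FPKM in Control. Of 12 targets of p53 that respond to damage 10 were higher and 1 lower, with Bax at 0.97 and Aen at 0.82 on the log2 scale, and in R15 against DDC 9 were lower and 2 higher. Of 8 macrophage markers 7 were higher, with summed levels of 130 to 635 FPKM in R15, 1236 to 2181 FPKM in DDC and 112 to 134 FPKM in Control. R15 2 stood apart from the other R15 libraries, with a macrophage sum of 635 FPKM against 130 and 157 FPKM, and a B and plasma cell sum of 170 FPKM against 37.4 and 58.1 FPKM. The proliferation marker sum was also highest in R15 2, at 31.5 FPKM against 24.0 FPKM in R15 1 and 21.6 FPKM in R15 3. R15 2 had the highest R15 value for 14 of the 36 genes, Brca1, Rad51ap1, Exo1 and Brip1 among them. R15 1, with the lowest macrophage sum, had the highest for 20 of the 36. Without R15 2, 23 genes were lower and 1 higher in R15 against DDC, and 1 was higher in R15 against Control. All 5 dendritic cell markers were higher (18.3 to 58.0 FPKM in R15, 62.0 to 81.0 in DDC, 9.74 to 22.3 in Control), as were the 4 of 5 neutrophil markers that could be tested (2.10 to 6.66 FPKM in R15, 36.1 to 62.5 in DDC, 0.881 to 3.39 in Control); the fifth, Ly6g, was at 0 in all libraries but DDC 3. All 5 endothelial markers were lower (30.3 to 106 FPKM in R15, 6.84 to 20.7 in DDC, 42.8 to 191 in Control), and so were all 5 markers of B and plasma cells (37.4 to 170 FPKM in R15, 10.3 to 20.7 in DDC, 40.3 to 87.8 in Control). Of 8 hepatocyte markers 1 was higher and 2 lower, with sums of 1774 to 2434 FPKM in R15, 1054 to 1585 FPKM in DDC and 2907 to 3583 FPKM in Control. Of the cholangiocyte markers 4 of 7 were higher and 1, Sox9, was lower. Markers of T and NK cells (4 tested) and of pancreatic acinar cells (5 tested) did not pass with limma, at unadjusted p of 0.058 to 0.74, and of 5 stellate cell and fibroblast markers 1 was higher and 1 lower. The part of the dividing cells and of these other cell types in the differences of the repair genes was not tested.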

How the data were processed

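RNA of 11 libraries was sequenced from bead-selected liver cells with a stranded mRNA kit, per the labels' protocols, and mapped to mm10, per the submitters' processing notes; the sources used here give neither the aligner nor the counter nor whether counting used strand. The authors deposited FPKM per gene, and no counts. In each column the FPKM values came out as whole reads (100% of non-zero values within 0.001 read), which gave the library totals. Members and gene lists were chosen with earlier results of these data known. The rule was to name all 36 genes, to give every library for genes at least 2-fold apart between DDC and Control and for the most and least abundant of each role, and of other lists to name at most 3 genes with the smallest p.

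Groups were compared with limma 3.58.1 in R 4.3.3, with a variance trend, on log2(FPKM + 1), with 1 model of the 3 groups, 2-sided tests and Benjamini-Hochberg adjustment over the 19807 genes with a mean of at least 0.1 FPKM. The test was checked on simulated data. Ratios are of mean FPKM. Alternatives were no minimum, 1 FPKM in at least 3 libraries, a pseudocount of 0.1, median-of-ratios scaling, rescaling to a common FPKM total, limma voom on recovered reads, only the 2 groups compared, the replicate number as a block, and each library left out. Leaving out Control 1 with Control 3, leaving out the 5 libraries with pancreatic transcripts, and the list of gastric genes were chosen after seeing the data. Of the 36 gene models 20 overlap another model in GENCODE M21. Promoter windows came from RefSeq (GRCm38.p6), matched by symbol. One cholangiocyte marker is not reported here and was left out of that list.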

Additional observations from a re-analysis of the deposited data

Results flagged for a closer look

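Among 72 groups of 4 libraries (36 genes in DDC and in Control), 5 held a library whose gap to its nearest neighbour exceeded Dixon's 95% critical value; chance alone gives about 1 in 20. Palb2 was lowest in Control 1 at 0.595 FPKM, against 0.836 to 0.859 FPKM in the other Control libraries. Rad51b was lowest in Control 1 at 0.0559 FPKM, from 7 reads, against 0.209 to 0.234 FPKM. Fancl was highest in DDC 2 at 4.47 FPKM, against 4.20 to 4.23 FPKM in the other DDC libraries. Parp1 was highest in Control 2 at 24.4 FPKM, against 22.2 to 22.4 FPKM, and Xrcc6 was highest in Control 3 at 8.35 FPKM, against 7.71 to 7.81 FPKM. The direction of DDC against Control for these 5 genes was the same with and without the library named.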

How the results depend on the processing

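Over 21 alternatives, none of the 55 calls on the 36 genes changed sign, and 35 of 1149 refits no longer passed. Of DDC against Control, 27 to 29 genes were higher when any library was left out, and 1 or 2 lower. With limma voom 30 were higher, as Fancc, Fancm and Msh6 passed. With 1 FPKM in at least 3 libraries 24 were higher, as Rad51b, Rad51c and Polq did not reach that minimum. The count lower was 2 in 7 further alternatives, with Xrcc6 beside Xpc except without Control 1 and Control 3, where it was Fancg. In R15 against DDC, 2 genes were higher on a common FPKM total (Xrcc6 joined Xpc), and leaving out 1 library gave 1 to 2 (Atm without R15 3). In R15 against Control, the count higher was 1 with the replicate block, 0 with only the 2 groups compared, without Control 1 and Control 3 and without the 5 libraries with pancreatic transcripts, and 1 to 3 without any 1 library. The genes called over the whole table in R15 against Control numbered 719 higher and 701 lower with median-of-ratios scaling, 252 lower on a common total, 631 lower with limma voom, 264 and 68 with only the 2 groups, 493 and 197 with the replicate block, 355 and 175 without Control 1 and Control 3, 16 and 20 without the 5 libraries, and 564 to 1475 and 184 to 711 without any 1 library. Without the 5 libraries, 3764 genes were higher and 3514 lower in DDC against Control. Of the 4 same-numbered pairs of DDC and Control, 3 had correlated deviations (0.179 to 0.305) and the other did not (-0.023), and 3 of the 8 libraries correlated best with their own number; the 6 pairs with R15 had -0.286 to 0.015. The deposited column names number the libraries on through all groups, with a number skipped between the DDC and R15 libraries, so they name no pairs. Not every pair exceeded 0.1 either, and the block was not used as a pairing. With the block, DDC against Control kept counts of 27 higher and 1 lower. The cause of these changes was not tested.

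Differences that changed sign had not passed the threshold and were small, at most 0.10 on the log2 scale. In R15 against DDC, Fancc was -0.026 with median-of-ratios scaling and -0.037 with limma voom. On a common total Rbbp8 was 0.096, Fancm 0.052, Msh6 0.0020, Parp1 0.088 and Ddb2 0.081, and with the replicate block Ddb2 was 0.0049. Without the 5 libraries Rbbp8 was 0.052 and Fancm 0.026. In R15 against Control, median-of-ratios scaling gave Fanca -0.0058, Fancg -0.046, Msh6 -0.030 and Chek2 -0.0072. With limma voom they were -0.0033, -0.040, -0.021 and -0.010, and on a common total Xrcc6 was 0.0027. Without Control 1 and Control 3, Rad51b was -0.037, Fancg -0.10 and Msh6 -0.056. Without the 5 libraries Rad51ap1 was 0.056, Fancg -0.044, Msh6 -0.036 and Ddb2 -0.0043. Leaving out 1 library gave, in R15 against DDC, -0.076 to 0.010 for Ddb2, -0.015 to 0.029 for Fancc, -0.083 to 0.029 for Fancm and -0.086 to 0.060 for Rbbp8. In R15 against Control it gave -0.035 to 0.063 for Brip1, -0.060 to 0.14 for Chek2, -0.035 to 0.10 for Fanca, -0.050 to 0.053 for Fancg, -0.021 to 0.068 for Msh6, -0.077 to 0.029 for Rad51ap1, -0.033 to 0.044 for Rad51b, -0.0022 to 0.057 for Xrcc2 and -0.034 to 0.00076 for Xrcc6. Depth limits the least abundant genes, of which Rad51b had 7 to 99 reads in a library.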
